A study of Mus musculus with 8 samples.

Results

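Immediate early genes are the genes that a cell transcribes within minutes of a growth factor, stress or damage signal, from factors already present and without new protein synthesis. Kinase cascades of the ERK, JNK and p38 type phosphorylate the factors SRF, its ETS partners, CREB and JUN at their promoters. The products are short-lived: AP-1 subunits, zinc-finger factors and orphan nuclear receptors that switch on later genes, and phosphatases and RNA-decay factors that switch the signal off again. In intestinal crypts the same genes respond to growth factors and to injury.

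The list held 37 genes of this kind, given by name; its rule uses no value of these arrays, but it was drawn up with earlier results of these data known. All 37 had a probe on the array (44 probes in all), and 33 passed the filter on dim probes, among 19495 genes tested. RNA came from the lower crypts of the jejunum, dissected by laser from fixed tissue sections, and went onto 1 Agilent array per mouse. All 8 mice were Lgr5EGFP-IRES-CreERT2/+, carrying a fluorescent reporter and an inducible recombinase in 1 copy of the stem-cell gene Lgr5, were 4 to 6 weeks old, and received 80 mg/kg of etoposide, a topoisomerase poison that breaks DNA, into the tail vein. The groups differed in feeding before the injection: the fasted mice (n = 4) had no food for 24 h and the fed mice (n = 4) ate. Both groups then had moistened pellets, and tissue was taken 3 h after the injection. Replicates 1 and 2 of each group are labelled male and replicates 3 and 4 labelled female. No array without etoposide was analysed here, so the values compare feeding states after etoposide and say nothing of induction by the drug. Values below are log2 processed signals minus the array's 75th percentile, called levels; a difference is the fasted mean minus the fed mean, with its standard error (SE) from a linear model with labelled sex as a term. A level can be compared between arrays for 1 probe, not between probes. In bulk crypt RNA, fewer cells of a type and less RNA per cell cannot be told apart.

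Some arrays stood apart. The share of probes well above background ran from 53.2% to 65.6%. It was lowest on fed replicate 1 (53.2%), fasted replicate 3 (53.6%) and fed replicate 2 (55.6%), and at least 60.9% on the other arrays. Fasted replicate 3 was the only array scanned on the second scan day and correlated least with the others. Fed replicate 4 is labelled female, yet its Xist signal was 4.69 on the log2 scale and not well above background, against 13.09 to 13.69 on the other arrays labelled female, and its Y-linked Eif2s3y signal was 9.31 and well above background. Fed replicate 1, labelled male, had an Eif2s3y signal of 7.29, not well above background, against 8.42 to 9.79 on the other arrays labelled male. Its Xist signal, 5.20, was not well above background either. Results by sex are therefore by label. Of the tissue markers, Paneth, goblet and stem cell genes were measured, but the Lgr5 probe was well above background on no array.

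Promoter sequences of several of these genes are shown because they hold letters that match elements known, as background, for this class. RefSeq windows of assembly GRCm38.p6, reaching 250 bases upstream of the annotated start, matched 29 of the 37 genes; some genes have several windows (43 for the 29). Below are the windows of the 4 genes with the largest differences among tested genes that have a single window, and that of Fos, the type member of the class. Capitals mark, on either strand, the cAMP response element core TGACG (read CGTCA on the other strand) and the Jun-type AP-1 site TGACATCA. They also mark, on either strand, the serum-response CArG box and, at any position, the letters TATAAA.
Atf3, chr1:191183334-191183583 (minus strand): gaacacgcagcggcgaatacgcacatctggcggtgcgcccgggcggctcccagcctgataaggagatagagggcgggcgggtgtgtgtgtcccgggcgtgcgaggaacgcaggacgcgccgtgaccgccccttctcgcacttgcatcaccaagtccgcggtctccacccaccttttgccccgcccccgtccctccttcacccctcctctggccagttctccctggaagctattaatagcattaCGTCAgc
Nr4a2, chr2:57124004-57124253 (minus strand): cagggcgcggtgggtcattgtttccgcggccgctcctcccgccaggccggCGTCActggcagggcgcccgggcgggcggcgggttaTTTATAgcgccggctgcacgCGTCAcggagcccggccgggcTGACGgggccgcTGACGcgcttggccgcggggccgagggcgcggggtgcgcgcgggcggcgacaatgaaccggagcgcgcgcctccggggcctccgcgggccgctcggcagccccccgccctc
Jun, chr4:95052223-95052472 (minus strand): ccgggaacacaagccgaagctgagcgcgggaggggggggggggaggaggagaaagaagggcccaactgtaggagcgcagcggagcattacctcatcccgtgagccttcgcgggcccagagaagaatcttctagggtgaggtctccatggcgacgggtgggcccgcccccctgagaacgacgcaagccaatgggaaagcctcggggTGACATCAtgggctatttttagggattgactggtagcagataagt
Dusp5, chr19:53528895-53529144 (plus strand): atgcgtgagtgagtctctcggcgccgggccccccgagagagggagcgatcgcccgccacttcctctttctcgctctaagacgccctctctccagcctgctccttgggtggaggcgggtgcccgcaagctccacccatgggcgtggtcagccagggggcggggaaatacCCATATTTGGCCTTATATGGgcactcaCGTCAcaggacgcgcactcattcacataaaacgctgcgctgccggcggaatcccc
Fos, chr12:85473640-85473889 (plus strand): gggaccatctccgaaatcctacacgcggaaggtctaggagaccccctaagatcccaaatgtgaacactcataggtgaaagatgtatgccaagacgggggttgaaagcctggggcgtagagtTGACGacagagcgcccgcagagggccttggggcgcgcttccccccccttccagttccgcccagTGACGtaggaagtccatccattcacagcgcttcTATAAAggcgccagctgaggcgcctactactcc
The Dusp5 window holds a pair of CArG boxes side by side, 82 to 73 and 72 to 63 bases before the start, followed by a TGACG core at 55 to 51. Jun has no TGACG core and carries TGACATCA at 45 to 38. Fos has TGACG at 129 to 125 and at 66 to 62, and TATAAA at 33 to 28. Nr4a2 has 4 TGACG cores and, on the other strand at 164 to 159, the letters TATAAA. Atf3 has 1 TGACG core, at 7 to 3. A gene was counted where any of its windows held a motif, in the list and among all 27025 genes of the table alike. TGACG was found in 16 of 29 listed genes (55.2%), against 19.8% of all genes; among genes with a single window it was in 12 of 25, against 17.5%. The full element TGACGTCA, which contains that core, was in 2 (Dusp1 and Maff, 6.90%) against 1.77%. CArG boxes were in 4 (Dusp5, Egr2, Srf and Zfp36, 13.8%) against 1.62%. The EGR site GCGGGGGCG was in 7 (24.1%) against 2.93%, and TATAAA in 7 against 14.3%. TGACATCA was in 2 (Jun and Maff) against 3.41%, the AP-1 site TGACTCA in 1 (Csrnp1) against 5.16%, and the ETS core CCGGAA in 5 against 13.6%. These are matches of letters and no evidence of binding in these samples.

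Most immediate early genes had a lower mean in fasted than in fed crypts, but no single gene passed the test. Of 33 genes tested, 28 were lower and 5 higher in the fasted group, where 55.5% of all genes were lower. Their median difference was -0.45, against -0.06 over all genes tested. By limma's moderated test with Benjamini-Hochberg adjustment at 0.05, 0 of 33 were called, as were 0.0% of the 19495 genes. The smallest adjusted p was 0.787, for these genes and for all genes alike. Before adjustment, 4 of 33 had p under 0.05 (Atf3, Egr3, Nr4a2 and Fosl2, each lower in fasted crypts), against 5.97% of all genes in either direction and 2.01% lower. Groups did not overlap for 2 genes lower in fasted crypts (Egr3 and Fosl2; background 1.97%) and for 1 higher (Ier5; background 2.98%), against 4.94% of all genes in either direction. The SEs ran from 0.18 to 0.71, so for most genes the difference was within 2 SEs of 0.

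**Figure D1:**
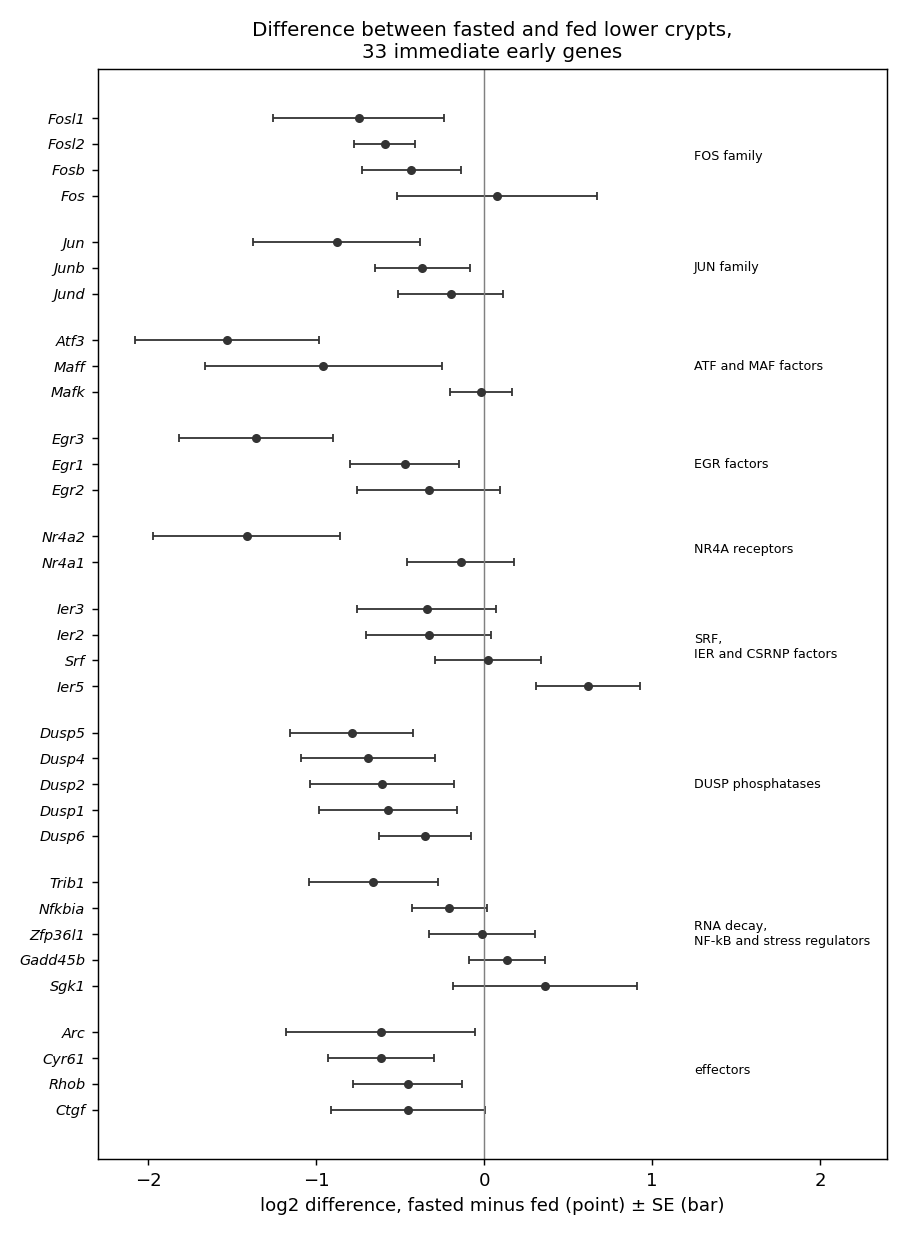
Difference in level between fasted and fed lower crypts (log2, horizontal axis) for the 33 immediate early genes tested, with points for the fitted difference and bars for its SE (n = 4 arrays per group). Most points lie left of 0, from Atf3 at -1.53, and Ier5 at 0.62 lies furthest right.

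Among the FOS proteins, which pair with JUN proteins to form the factor AP-1, Fosl2 stood lowest against its error. Fosl2 levels were 2.25, 2.13, 2.71 and 2.77 on fasted arrays 1 to 4 and 3.02, 3.13, 3.13 and 2.94 on fed arrays 1 to 4. All fasted arrays lay below all fed arrays, with a difference of -0.59 (SE 0.18) and, from limma, an adjusted p of 0.787. A second Fosl2 probe gave -0.46. Fosl1, which is induced late among the FOS genes, read -0.50, -1.08, 1.65 and 0.13 in fasted and 0.64, 1.34, 0.77 and 0.43 in fed crypts. Its highest and its lowest values both came from fasted mice, and the difference was -0.75 (SE 0.51). Fosb read -1.46, -0.97, -1.50 and -0.53 in fasted and -0.67, -0.83, -0.87 and -0.36 in fed crypts, a difference of -0.43 (SE 0.30). Fos itself read -4.31, -3.93, -2.38 and -2.90 in fasted and -5.17, -2.63, -3.07 and -2.96 in fed crypts. The groups overlapped widely, the probe was well above background on 3 of 4 arrays in each group, and the difference was 0.08 (SE 0.60).

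The JUN genes were lower on the first pair of fasted arrays than on the others. Jun, the main DNA-binding partner in AP-1, read 1.21, 0.31, 2.67 and 1.84 in fasted and 2.73, 2.91, 2.20 and 1.69 in fed crypts. Fasted replicates 3 and 4 lay inside the fed range, fasted replicates 1 and 2 below it, and the difference was -0.88 (SE 0.50). Junb, a JUN protein with weaker activation in AP-1, read 1.12, 0.97, 2.32 and 1.5 against 1.43, 2.14, 2.00 and 1.8, with a difference of -0.37 (SE 0.28). Jund, the constitutively expressed JUN gene, differed by -0.20 (SE 0.31), with fasted replicate 3 the highest of all arrays at 4.44.

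Atf3, a stress-induced repressor of the ATF/CREB family that is switched on by DNA damage and by nutrient stress, had the largest difference of the list in this fit, though not in each alternative. Its levels were -3.37, -2.85, -0.61 and -0.98 in fasted and -0.33, -0.04, -0.44 and -0.87 in fed crypts. Fasted replicates 1 and 2 lay far below every other array, and fasted replicates 3 and 4 lay within or just below the fed range. Means were -1.95 ± 1.36 (SD, n = 4) and -0.42 ± 0.35 (SD, n = 4), a difference of -1.53 (SE 0.55), with an adjusted p of 0.787 from limma. With normexp background correction Atf3 differed by -0.93 and Egr3 by -0.99, and without fasted replicate 1 Atf3 differed by -1.15 and Nr4a2 by -1.37. The probe, at chr1:192994547-192994606 in mm9, was well above background on 3 of 4 fasted and all 4 fed arrays, so its low fasted values lie near background and no fold is given. Maff, a small MAF protein that lacks an activation domain, was dim: -5.36, -4.27, -1.79 and -3.14 in fasted and -4.11, -1.72, -2.18 and -2.72 in fed crypts. Its difference was -0.96 (SE 0.71), with 2 fasted and 3 fed arrays well above background. Its relative Mafk was nearly level, at -0.02 (SE 0.19).

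The EGR genes encode zinc-finger factors that bind GC-rich sites and are classic targets of SRF and ERK signalling. Egr3 read -1.48, -2.24, -0.75 and -0.46 in fasted and 0.91, 0.17, -0.45 and -0.13 in fed crypts. The groups did not overlap, though fasted replicate 4 and fed replicate 3 almost met. Means were -1.23 ± 0.80 (SD, n = 4) and 0.125 ± 0.58 (SD, n = 4), a difference of -1.36 (SE 0.46), or 2.56-fold lower, with an adjusted p of 0.787 from limma. The Egr3 probe lies at chr14:70479222-70479281 in mm9. Egr1, the most widely induced EGR gene, read -0.81, -0.69, 0.54 and 0.23 in fasted and -0.20, 0.74, 0.09 and 0.52 in fed crypts. Fasted replicates 1 and 2 were again the lowest arrays, and the difference was -0.47 (SE 0.33). Egr2 differed by -0.33 (SE 0.43), with fasted replicate 1 lowest at -3.59.

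The NR4A genes encode orphan nuclear receptors whose activity follows their abundance. Nr4a2 read -2.32, -1.40, -3.08 and -1.60 in fasted and -0.76, -1.50, 0.63 and -1.10 in fed crypts. Here fasted replicate 3 was the lowest array and fed replicate 3 the highest, an order unlike that of Atf3 or Jun. The difference was -1.41 (SE 0.56; adjusted p 0.787 from limma), but a second Nr4a2 probe gave only -0.17. Nr4a1 read -0.93, -0.16, 0.26 and -0.49 in fasted and 0.18, -0.07, -0.34 and -0.53 in fed crypts, with overlapping groups and a difference of -0.14 (SE 0.32). Nr4a3 was well above background on no array.

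SRF, the factor that binds CArG boxes, and the IER genes split in direction. Ier2, a small nuclear protein induced by serum, read 0.16, 0.24, 1.39 and 1.1 in fasted and 1.31, 1.59, 0.58 and 0.73 in fed crypts. In the fasted group replicates 3 and 4 were high, and in the fed group replicates 1 and 2 were high, leaving a difference of -0.33 (SE 0.37). Ier5 was the only gene whose fasted arrays all lay above its fed arrays: -1.50, -1.79, -0.98 and -1.79 against -2.17, -2.13, -1.83 and -2.42, a difference of 0.62 (SE 0.31). A second Ier5 probe gave -0.63, the opposite direction, so the gene's direction depends on the probe. Ier3 differed by -0.34 (SE 0.41) and Srf by 0.02 (SE 0.32), where a second Srf probe gave -0.37. Csrnp1, a nuclear factor, was well above background on 1 fed array and was not tested.

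Dual-specificity phosphatases remove phosphate from MAP kinases and so end the signal that induced them. All 5 genes measured had a lower mean in fasted crypts, with a median difference of -0.61. That median was -0.30 without fed replicate 2 and -0.39 without fasted replicate 1, again with all 5 lower. In the arrays labelled male all 5 were lower (median -1.40), while in those labelled female 1 of 5 was (median 0.11). Dusp1, which acts on p38 and JNK, read -1.36, -0.17, 0.41 and 0.20 in fasted and -0.02, 1.02, 0.11 and 0.27 in fed crypts, a difference of -0.58 (SE 0.41). Fasted replicate 1 was well below the other arrays and fed replicate 2 well above them. Dusp5, a nuclear ERK phosphatase, read -1.77, -1.47, -0.33 and -1.25 against -0.47, 0.08, -0.44 and -0.84. Only fasted replicate 3 reached the fed range, and the difference was -0.79 (SE 0.37). Dusp4 read -2.01, -2.11, -0.94 and -1.06 against -1.29, -0.02, -0.92 and -1.11, and Dusp2, also nuclear, -2.49, -2.33, -0.65 and -1.19 against -1.05, -0.64, -1.54 and -1.0. Their differences were -0.69 (SE 0.40) and -0.61 (SE 0.43), with overlapping groups. Dusp6, the cytoplasmic ERK phosphatase, differed by -0.35 (SE 0.28).

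Regulators of RNA decay, NF-kB and stress or kinase signalling had a median difference of -0.01 over 5 genes, with a sign that varied between alternatives, from -0.34 without both fasted replicate 3 and fed replicate 4 to 0.17 with the share of probes above background as a covariate. Zfp36, which destabilises AU-rich messages, was well above background on 2 fasted and 1 fed arrays and was not tested; it read -5.84, -3.73, -2.68 and -3.02 in fasted and -5.14, -3.22, -3.49 and -3.50 in fed crypts. The related Zfp36l1 differed by -0.01 (SE 0.31), and Nfkbia, the inhibitor that NF-kB induces against itself, by -0.21 (SE 0.23). Gadd45b, a stress-kinase activator, differed by 0.14 (SE 0.23) and the kinase Sgk1 by 0.36 (SE 0.55). The groups overlapped for each of these genes. Trib1, a pseudokinase that recruits a ubiquitin ligase, read 1.58, 1.19, 2.96 and 1.70 in fasted and 2.58, 2.90, 2.63 and 1.98 in fed crypts. Fasted replicate 3 was the highest array and the other fasted arrays were the lowest, with a difference of -0.66 (SE 0.39); its 3 probes gave -0.66, -0.60 and -0.69.

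The remaining genes encode effectors outside transcription and signalling feedback. Arc, a cytoskeletal protein best known from neurons, read -0.46, -0.86, 2.00 and 0.48 against 0.74, 1.65, 0.74 and 0.49, a difference of -0.62 (SE 0.56). Cyr61, a matrix protein and a target of SRF and YAP, read 0.13, -0.74, 0.48 and -0.19 against 0.63, 0.57, 0.85 and 0.08, a difference of -0.61 (SE 0.31). In Cyr61 fasted replicates 1 and 3 reached the fed range. Ctgf, a matrix protein of the same family, differed by -0.45 (SE 0.46) and the small GTPase gene Rhob by -0.455 (SE 0.32). Ptgs2, the inducible cyclooxygenase, was well above background on no array.

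**Figure D2:**
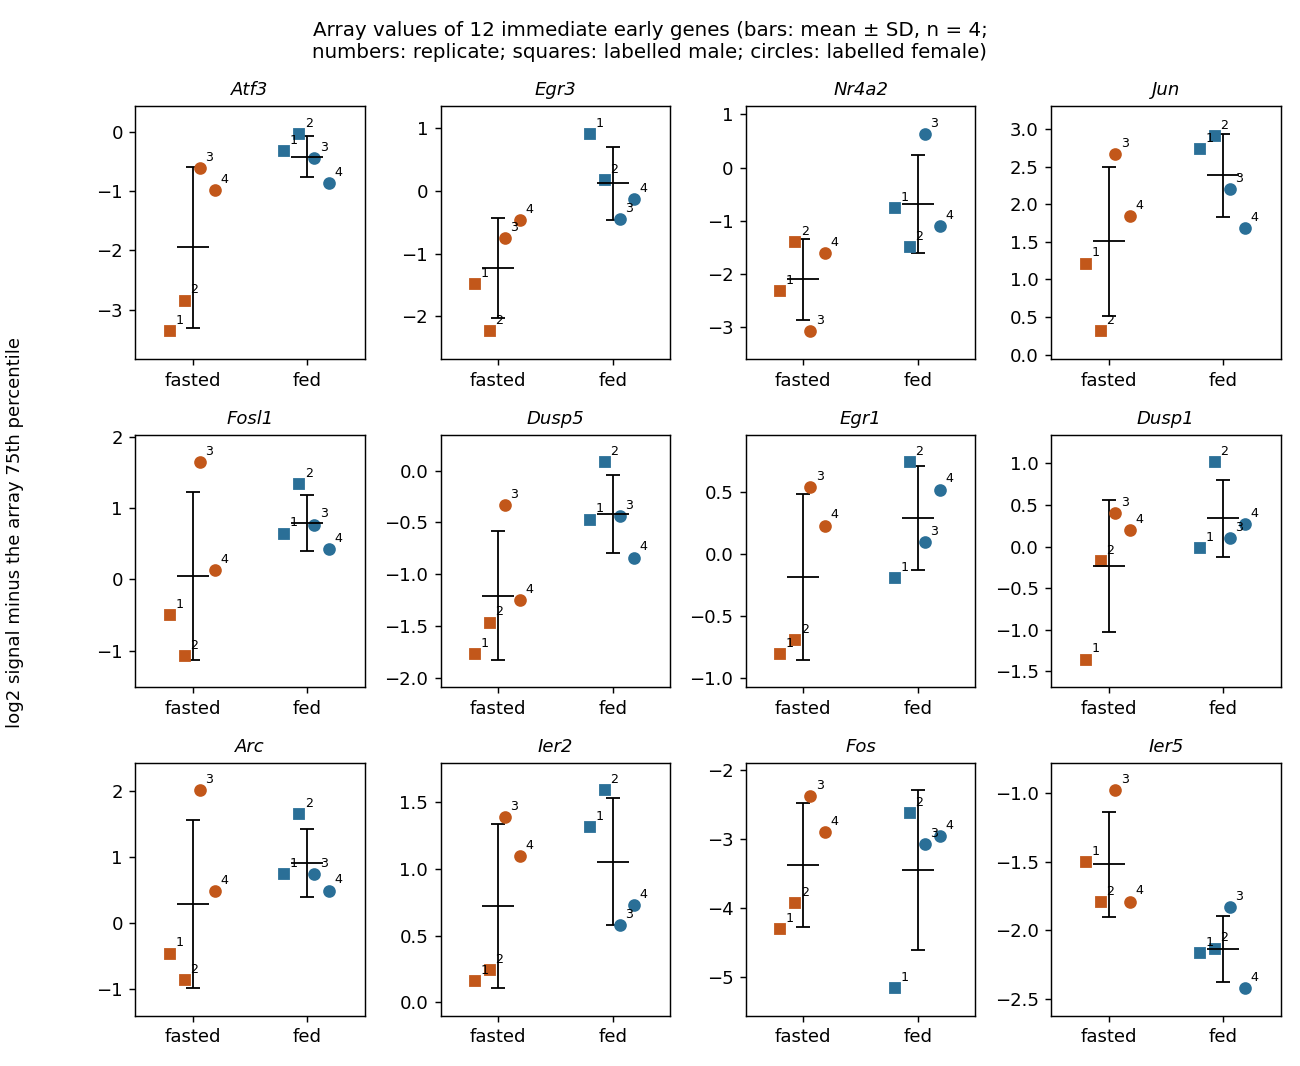
Levels of 12 immediate early genes on each array (vertical axis, log2 signal minus the array 75th percentile, scaled per gene), with fasted in orange, fed in blue, the replicate number beside each point and bars for mean ± SD (n = 4). In Atf3, Jun, Egr1 and Ier2 fasted replicates 1 and 2 lie below fasted replicates 3 and 4; in Atf3 they read -3.37 and -2.85 against -0.61 and -0.98.

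The fasted arrays did not share a common shift. Taking each gene's deviation from its own mean over 8 arrays, the median over the 33 genes was -0.73, -0.63, 0.52 and -0.11 on fasted arrays 1 to 4 and 0.28, 0.59, 0.14 and -0.10 on fed arrays 1 to 4. Fasted replicates 1 and 2 were the lowest of 8 arrays in 12 and 13 of 33 genes, where they were lowest for 9.35% and 9.23% of all genes. Fasted replicate 3 was the highest fasted array in 27 of 33 genes (81.8%, against 36.2% of all genes). Fed replicate 2 was highest of 8 in 14 genes, against 6.64% of all genes. The highest medians, on fasted replicate 3 and fed replicates 1 and 2, fell on the arrays with the lowest share of probes well above background. With that share as a covariate the median difference was -0.29, with 24 genes lower. In that fit 5 of the 33 had an unadjusted p under 0.05 from limma, against 5491 of all 19495 genes. What part array signal has in this pattern was not tested. Without fasted replicate 3 the median difference was -0.65 with 31 genes lower; without fed replicate 2 it was -0.23 with 27 lower.

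**Figure D3:**
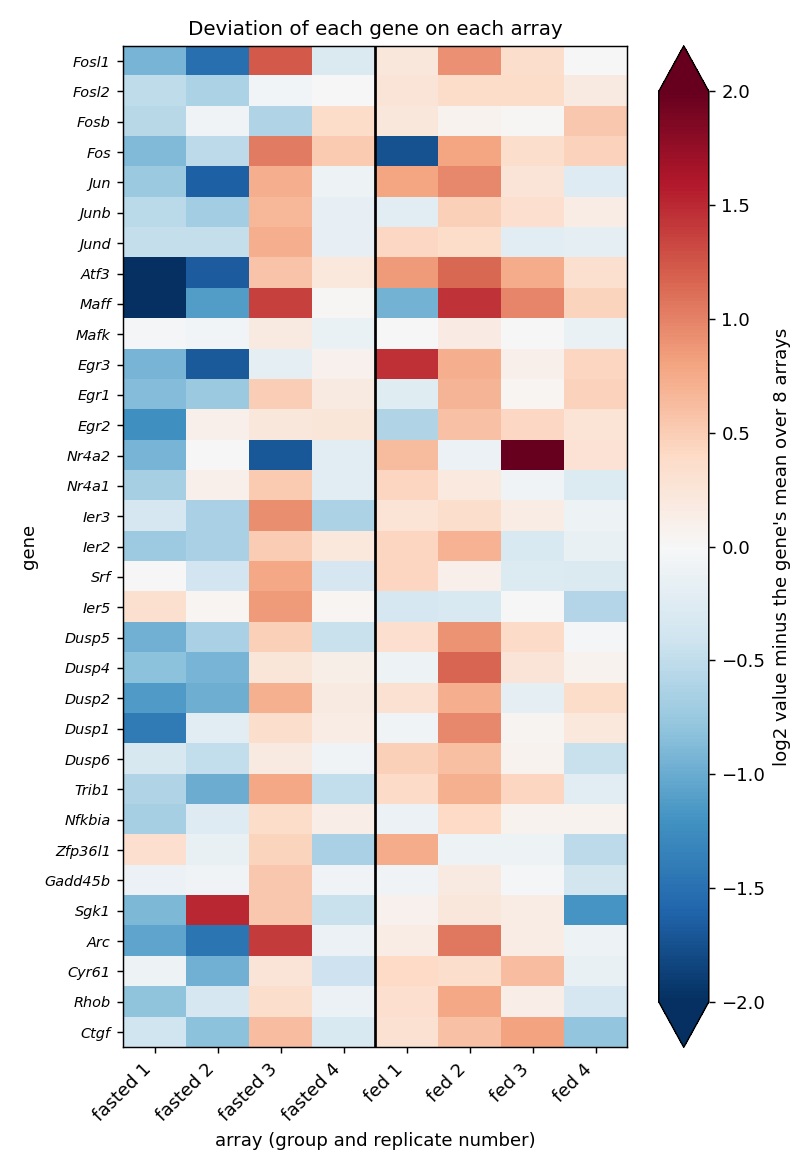
Deviation of each immediate early gene (rows) from its own mean over the 8 arrays (columns, by group and replicate), in log2 units by colour. Fasted replicates 1 and 2 are mostly below the mean (medians -0.73 and -0.63) and fasted replicate 3 and fed replicate 2 mostly above it (0.52 and 0.59).

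Split by the sex labels, the lower values lay in the arrays labelled male. There the median difference over the 33 genes was -0.91, with 31 lower, and both fasted arrays lay below both fed arrays in 27 of 33 (21.3% of all genes). In the arrays labelled female the median was 0.15, with 9 lower, and both fasted arrays lay below both fed arrays in 4 of 33 (16.5% of all genes) and above them in 5 (17.5%). In 3 of 33 (Jund, Ier2 and Nfkbia) they lay below under the male label and above under the female label, as in 2.84% of all genes. Atf3 differed by -2.92 in the labelled male and -0.14 in the labelled female arrays, Jun by -2.06 and 0.31, Arc by -1.86 and 0.62, Fosl1 by -1.78 and 0.29, and Egr3 by -2.40 and -0.32. Nr4a2 ran the other way, at -0.72 and -2.11. These pairs come from 2 arrays per group and have no test of their own. Other lists differed by label too. The 25 enterocyte markers had medians of 1.76 in the labelled male and 0.44 in the labelled female arrays. Medians were -0.52 and 0.27 for the 28 further early response genes, -0.51 and 0.12 for 15 NF-kB targets, and -0.30 and 0.24 for 14 leukocyte markers. Their part in the split by label was not tested. Array signal also ran along this split. Under the male label, fewer probes stood well above background on the fed arrays (53.2% and 55.6%) than on the fasted arrays (60.9% and 65.6%). Under the female label the low array was a fasted one, replicate 3 at 53.6%. Fasted replicate 4 and fed replicates 3 and 4 stood at 63.9%, 62.2% and 62.8%. What part array signal has in the split by label was not tested either.

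The test of the difference between the labelled sexes is the interaction term, which had no fit with array signal as a covariate. It was below 0 for 32 of 33 genes (48.2% of all genes), with a median of -1.10 (24 of 25 enterocyte markers were above 0, with a median of 1.35), and 10 had an unadjusted p under 0.05 (3.18% of all genes). After Benjamini-Hochberg adjustment limma called 0 of 33 and 0.0% of all genes, with a smallest adjusted p of 0.758. The largest term against its error was Atf3's, -2.78 (SE 0.56), followed by Ier2 at -1.84 (SE 0.40) and Jun at -2.37 (SE 0.59). With fed replicate 4 counted as male, in keeping with its Xist and Eif2s3y signals, the term was below 0 for 28 genes with a median of -0.77, 6 had an unadjusted p under 0.05 and 0 were called. Without fasted replicate 4, where fasted replicate 3 alone stands for the fasted arrays labelled female (its spread is taken from the other groups), 7 of the 33 genes and 11.3% of all genes were called, so the call turns on that array. Labelled sex itself, over both groups, gave 27 genes lower in the arrays labelled male, a median of -0.21 and 0 calls by limma (smallest adjusted p 1.0; 0 of 33 with an unadjusted p under 0.05).

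**Figure D4:**
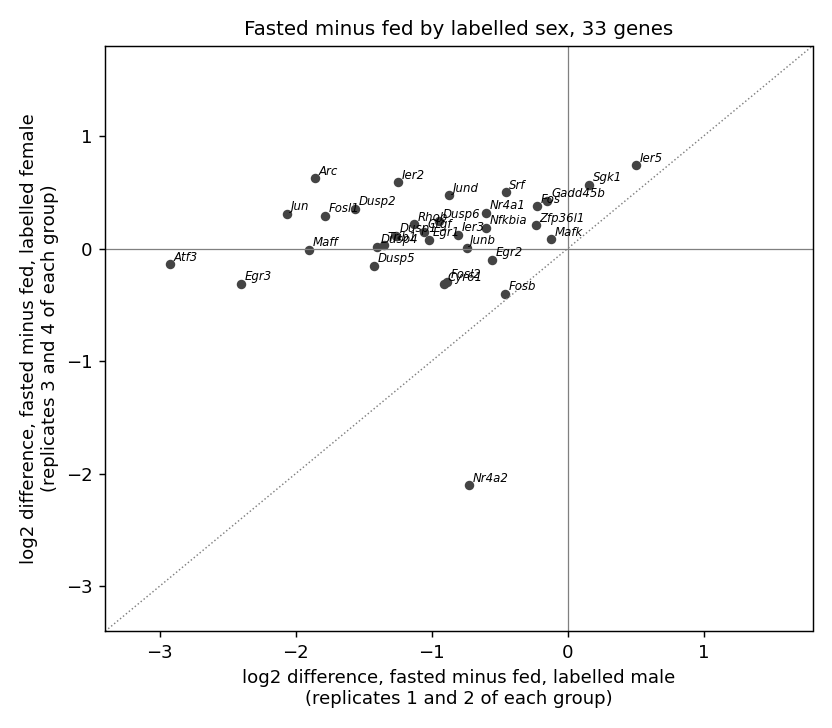
Fasted minus fed difference (log2) of each of the 33 genes in arrays labelled male (horizontal axis, replicates 1 and 2) against arrays labelled female (vertical axis, replicates 3 and 4). Points lie mainly left of 0 but on both sides of 0 vertically; Atf3 is at -2.92 and -0.14, and Nr4a2 at -0.72 and -2.11.

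Arrays that shared a glass slide allowed a comparison of fasted with fed within slides, without sex matched in each pair. The pairs were fasted 1 with fed 1, fasted 2 with fed 3 and fasted 4 with fed 4. Fasted 2 is labelled male and fed 3 female. Fasted 4 and fed 4 are both labelled female, but the Xist and Eif2s3y signals of fed 4 go against its label. The median differences were -0.79, -0.79 and -0.04, with 31, 30 and 19 of 33 genes below 0 (53.9%, 53.4% and 50% of all genes). In all 3 slides 19 of 33 were below 0, against 21.8% of all genes. The within-slide differences of Atf3 were -3.04, -2.40 and -0.11, those of Egr3 -2.39, -1.79 and -0.33, and those of Fosl2 -0.77, -1.0 and -0.17. With slide as a fixed block in place of the labelled sex term, limma called 0 genes (smallest adjusted p 0.113, and 0.237 among the 33). In that fit 15 of the 33 had an unadjusted p under 0.05 (13.0% of all genes), and the median difference was -0.56. Fasted replicate 3 and fed replicate 2 were each alone on a slide, and that fit takes nothing from them.

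**Figure D5:**
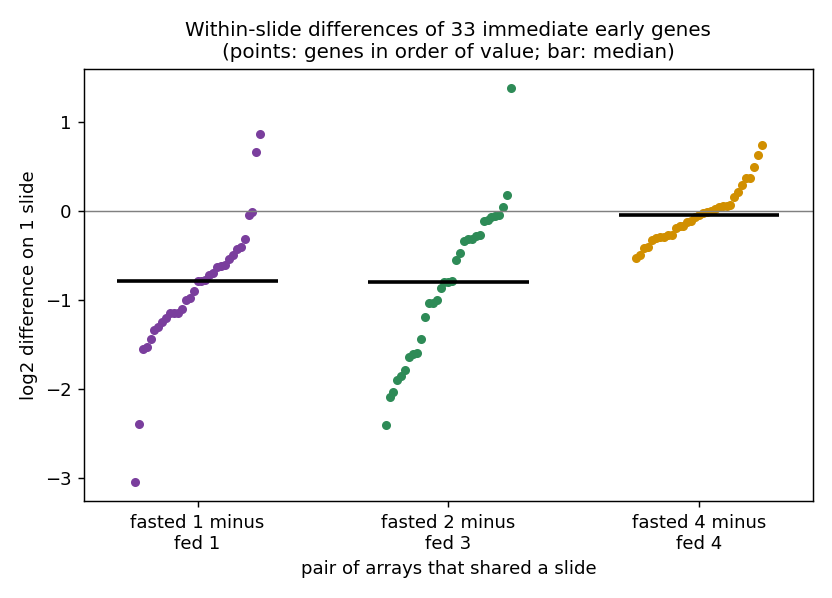
Fasted minus fed difference (log2, vertical axis) of the 33 genes within each of the 3 slides that held both groups, genes in order of value, with a bar at the median. Medians are -0.79, -0.79 and -0.04.

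Genes of the same pathways outside the list were counted in the same way, and limma called none of them. Over all genes tested, 55.5% were lower in fasted crypts and 5.97% had an unadjusted p under 0.05. Of 28 further early response genes, 17 had a lower and 11 a higher fasted mean (median -0.11), and 5 had an unadjusted p under 0.05. Of these Id1, an inhibitor of helix-loop-helix factors, differed by 0.86 (SE 0.23), Tsc22d1 by -0.75 (SE 0.25) and the GTPase gene Gem by 1.56 (SE 0.64). Of 13 feedback genes of the ERK cascade, 9 were lower and 4 higher (median -0.35), and 2 had an unadjusted p under 0.05. The ETS factor gene Etv4 differed by -0.76 (SE 0.25), and the phosphatase genes Dusp8 and Dusp7 by -1.04 (SE 0.35) and -0.95 (SE 0.63). Of 36 kinases and factors that act upstream, 14 were lower and 22 higher (median 0.08), among them Mapk11 at -1.03 (SE 0.45) and Mapk8, which encodes JNK, at 0.48 (SE 0.26). Of 15 early NF-kB targets, 13 were lower and 2 higher (median -0.18), and 0 had an unadjusted p under 0.05. Nfkb2, Il1b and Birc3 differed by -0.38 (SE 0.24), -0.65 (SE 0.42) and -0.40 (SE 0.26). Of 10 YAP and TEAD targets, 5 were lower and 5 higher (median -0.12), and 0 had an unadjusted p under 0.05.

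Cell type markers also differed between the arrays. Each of the 25 enterocyte markers measured had a higher fasted mean (median 1.13), where 55.5% of all genes were lower. Of these markers limma called 0, and 17 had an unadjusted p under 0.05 (5.97% of all genes). Their summed linear level (relative to each array's 75th percentile) ran from 188 to 303 in fasted and from 97.4 to 153 in fed arrays. Their median deviation was 0.92, 1.08, -0.15 and 0.38 on fasted arrays 1 to 4 and -0.43, -1.16, -0.26 and -0.27 on fed arrays 1 to 4. Thus fasted replicates 1 and 2, lowest in immediate early genes, were highest in enterocyte markers, and fed replicate 2, highest in the former, was lowest in the latter. The summed level of the 33 immediate early genes ran from 62.6 to 125 in fasted and from 82.9 to 123 in fed arrays. For Paneth cells, 14 of 15 markers had a lower fasted mean (median -0.42; sums of 482 to 633 against 646 to 879). The sum over all genes tested was also lower in fasted arrays, at 92550 to 104848 against 102910 to 125772, with ranges that overlap. Of 14 leukocyte markers 10 were lower (median -0.26; sums of 147 to 236 against 226 to 290). The Itgam probe alone made up 67.8% to 82.0% of those sums, which without it were 42.9 to 57.8 against 51.7 to 67.7, while Cd3g, which defines T cells, was well above background on no array. Medians were -0.06 for 18 stem cell, -0.18 for 14 goblet, 0.28 for 17 enteroendocrine and tuft, -0.08 for 14 fibroblast and smooth muscle, -0.18 for 11 endothelial and -0.04 for 9 neuron and glia markers, and limma called 0 in each. Of the stem cell markers 10 were lower and 8 higher, and groups did not overlap for 3 lower in fasted crypts (1.97% of all genes). Their sums were 218 to 249 in fasted against 258 to 360 in fed arrays. The Ephb3 probe made up 65.4% to 69.8% of those sums, which without it were 70.8 to 86.2 against 77.9 to 116. The part of cell makeup in the immediate early gene values was not tested.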

How the data were processed

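Cy5-labelled RNA of 8 mice was hybridised to Agilent mouse arrays, per the labels' protocols. Intensities per spot are in the deposited scanner files: the authors ran Agilent Feature Extraction 11.5.1.1 (per the submitters' processing notes), whose processed signal is background-subtracted per the file headers. The authors' deposited matrix holds log2 values whose ranks follow that signal in each array (Spearman correlation at least 0.999); its column medians run from 7.73 to 8.33, and its scaling and centring stay unknown. Control spots were left out (43020 of 44397 spots kept), spots flagged as outliers were dropped, which cost 2 to 146 of 39429 probes per array, and 0 spots were saturated. Names came from a RefSeq table through accessions for 27736 probes, and 11693 kept the files' name. Probe positions are in mm9, as the files give them, and exon positions of that build were not used here.

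Each array's 75th percentile was subtracted from its log2 processed signals. Probes stayed in where 4 or more of the 8 arrays were well above background (24459 probes). The brightest probe stood for a gene, leaving 19495 genes. Tests used limma 3.58.1 in R 4.3.3 (lmFit, eBayes with a mean trend) with terms for feeding group and labelled sex, and separately their interaction, Benjamini-Hochberg adjusted over all genes at 0.05, two-sided. The script was tested on simulated data. No pair of the 28 array pairs held identical values. The number of arrays limits the precision.

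The 37 genes, the other lists and the tests were chosen with earlier results of these data known. Array values are given for a set of 11 genes (Fos, Fosb, Jun, Junb, Egr1, Egr3, Atf3, Ier2, Nr4a1, Dusp1 and Zfp36) and the 10 further genes with the largest differences, and for Fosl2, chosen after its values were seen; other genes have their difference and SE, and from each other list of signalling genes up to 3 genes with the smallest p are named. Results on some items are not reported here. Alternatives covered scaling, background, the filter, probe choice, model terms, slide, labelled sex and each array left out.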

Additional observations from a re-analysis of the deposited data

Results flagged for a closer look

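In 3 of 66 groups of 4 arrays 1 array lay far from the rest by Dixon's criterion for 4 values, which chance alone meets in about 1 group in 20. Egr2 read -3.59 on fasted replicate 1, against -2.26 to -2.12 on the other fasted arrays. Sgk1 read -1.25 on fed replicate 4, against 0.00 to 0.15 on the other fed arrays. Gadd45b read 2.33 on fasted replicate 3, against 1.68 to 1.72.

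In 3 of 33 genes, against 2.84% of all genes, both fasted arrays lay below both fed arrays under the male label and above them under the female label. The interaction term was -1.34 for Jund, -1.84 for Ier2 and -0.79 for Nfkbia, and none passed limma's test after adjustment (adjusted p 0.758 for each).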

How the results depend on the processing

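In 25 alternatives the count of genes called between fasted and fed crypts stayed at 0, with a smallest adjusted p of 0.065 to 0.999, and no immediate early gene passed the threshold. Between 24 and 32 of the genes were lower in fasted crypts over 23 alternatives, and the median difference ran from -0.71 (without both fasted replicate 3 and fed replicate 4) to -0.23 (without fed replicate 2). Of the 33 genes 24 kept their direction in every alternative that gave a value; Fos, Atf3 and Maff have none where all 8 arrays had to be well above background. The count of genes called for the interaction with labelled sex ran from 0 to 2212 when single arrays were left out, 2212 without fasted replicate 4 and 1 without fed replicate 2.

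The other 9 genes turned in some alternative. Fos became -0.079 with quantile normalization, -0.0079 with normexp, -0.19 with fed replicate 4 as male, -0.21 with array weights and -0.091 without both fasted replicate 3 and fed replicate 4. Srf became -0.056 in the authors' matrix, -0.17 with probes averaged, -0.19 and -0.11 with slide as a fixed and a random block, -0.13 with array weights and -0.33 without both of those arrays. Zfp36l1 became 0.024 with quantile normalization, 0.076 with normexp, 0.17 with the share of probes above background as a covariate and 0.029 with fed replicate 4 as male. Mafk became 0.0092 with normexp and 0.030 with that covariate, which also turned Jund to 0.030 and Nr4a1 to 0.0031. Sgk1 became -0.028 with array weights and -0.089 without both arrays, Gadd45b -0.12 and Zfp36l1, still below 0, -0.34 without both. Ier5 became -0.0052 with probes averaged, since its 2 probes differ in sign. With single arrays left out, the ranges were -0.37 to 0.64 for Fos, -0.30 to 0.19 for Srf, -0.27 to 0.20 for Zfp36l1, -0.099 to 0.035 for Mafk, -0.38 to 0.11 for Nr4a1, -0.078 to 0.88 for Sgk1 and -0.042 to 0.24 for Gadd45b. The cause was not tested.

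With the replicate number as a block, 0 genes were called, 28 of the genes were lower and the median difference was -0.45. Arrays of the same number deviated together for numbers 1 and 4 (correlations of 0.37 and 0.61), which also shared a slide, and not for numbers 2 and 3 (-0.47 and -0.45), so the numbers were not taken to pair the mice. The 3 pairs that shared a slide correlated at 0.37, 0.54 and 0.61. Dim probes (Fos, Atf3, Maff, Zfp36) lie near background, where a log2 difference is least certain.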
